A study of Mus musculus with 16 samples.

Results

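The 10 genes described here belong to the Bcl2 family, which controls whether a cell releases the contents of its mitochondria and dies. They are Bcl2, Bcl2l1, Bcl2l2 and Mcl1, which protect cells, Bak1, which permeabilises the outer mitochondrial membrane, and the BH3-only genes Bcl2l11, Bid, Bik, Bmf and Bad. They were taken by their gene names from the table of expression values, as the family members outside the best-known direct p53 targets. Each name matched 1 locus, so all 10 were found among the 23282 named loci used, and all 10 passed the filter on low counts.

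RNA was sequenced from mouse embryoid bodies, which are floating aggregates of differentiating embryonic stem cells, on day 6. All groups came from cells with GFP knocked in at Rx (Rax) and were differentiated by SFEBq, a serum-free aggregation culture, in GMEM medium with 5% KSR, with 2% matrigel added on day 1. WT cells were labelled as wild type and were untreated, and the KO was a Wdr5 knockout, 1 clone according to the series title, without doxycycline. In the T12h and T48h rescues, whose genotype is also labelled as the knockout, doxycycline was added at 12 h or 48 h to induce human WDR5, a core subunit of histone methyltransferase complexes. The WT and the KO received no doxycycline, so an effect of the drug and an effect of WDR5 cannot be told apart, nor can Wdr5 loss and other differences of the clone.

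As background, anti-apoptotic members hold the effectors Bak1 and Bax in check by binding them and by capturing BH3-only proteins. BH3-only proteins, named for the single BH3 motif they share with the family, relay stress signals: Bim, the product of Bcl2l11, and Bid can engage the effectors directly, while Bad, Bik and Bmf act mainly by occupying the protective members. Pluripotent stem cells are known for their readiness to undergo mitochondrial apoptosis, and the setting changes as they differentiate. The tables hold 1 value per gene, so splice forms with opposed roles, such as the long and short products of Bcl2l1 and of Mcl1, were not separated.

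Each group had 2 replicates, called a and b with no order, each the sum of 2 technical columns, and the 8 libraries held 32476673 to 65687435 estimated fragments in named genes. Nothing in the labels states that the replicates were separate cultures, so p-values reflect only how far these libraries differ, and that may be technical. The mouse Wdr5 locus stood at 186 and 187 CPM (counts scaled to library size by TMM) in WT and 32.5 and 28.4 in the KO. It held 329 and 337 after T12h rescue, then 280 and 294 after T48h rescue. Whether fragments of the induced human WDR5 were counted at this mouse locus was not tested. Nor was it tested whether the KO values come from an intact transcript. The makeup of the aggregates differed between groups. The summed CPM of 5 eye field markers (Rax, Pax6, Six3, Six6 and Lhx2) was 1330 to 1381 in WT and 1592 to 1621 in the T12h rescue, but 5.64 to 8.92 in the KO and 18.7 to 20.3 in the T48h rescue. For 5 pluripotency markers (Pou5f1, Nanog, Zfp42, Utf1 and Tdgf1) the sum was 502 to 509 in the KO and 19.4 to 98.8 in the other libraries. For 5 cardiac mesoderm markers (Hand1, Tbx20, Nkx2-5, Tnnt2 and Myl7) it was 1759 to 1811 in the T48h rescue and 8.14 to 21.8 elsewhere, where Nkx2-5 was at 0 in 1 WT and 1 T12h library. Between WT and KO these markers were mixed. Tnnt2 (means of 0.172 CPM in WT and 2.66 in the KO), Myl7 (0.62 and 2.01) and the stronger Hand1 locus (8.53 and 12.3) were higher in the KO. Tbx20 was lower there (6.18 and 2.48), and Nkx2-5 and the weaker Hand1 locus did not pass. For 5 fibroblast markers (Col1a1, Col1a2, Postn, Thy1 and Dcn) the sum was 774 to 840 in the T48h rescue and 16.1 to 119.7 in the others, with Dcn at 0 in both T12h libraries. Col1a1, Col1a2, Postn and Dcn had their highest means in the T48h rescue, but Thy1 did not. Mean Thy1 was 0.997 CPM in WT, 5.75 in the KO, 0.288 after T12h and 1.35 after T48h rescue. Endothelial and blood markers, also 5, summed to 679 to 713 in the T48h rescue and 93.6 to 155 in the others. Single markers within this last sum went opposite ways between WT and KO. Mean Kdr was 83.7 CPM in WT, 1.89 in the KO and 127 after T12h rescue. In the same order Tek had 2.575, 54.6 and 5.79, Cdh5 2.82, 52.2 and 8.89, and Pecam1 5.22, 14.9 and 1.66. Hbb-bh1 did not pass between KO and WT (edgeR adjusted p = 0.0695). Summed CPM of 5 neuron markers was 90.7 to 95.2 in the KO and 22.33 to 52.97 elsewhere. Of these Tubb3, Stmn2 and Dcx were higher in the KO than in WT, and Elavl3 did not pass (edgeR adjusted p = 0.159). Map2 was lower there, with means of 9.27 CPM in the KO and 16.1 in WT (edgeR adjusted p = 0.00154). The part of these cell mixtures in the results below was not tested, and in bulk RNA fewer cells of a type cannot be told from less RNA per cell.

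Compared per transcript length, in FPKM, the members spanned a wide range of levels. In WT, Mcl1 was highest with a mean of 55.2 FPKM, followed by Bak1 at 29.8, Bcl2l1 at 28.1 and Bcl2l11 at 20.3. Bmf at 13.7, Bad at 13.2, Bid at 11.5 and Bcl2l2 at 9.52 FPKM formed the middle, and Bcl2 at 2.39 and Bik at 1.08 were lowest. The founding member of the family was therefore one of its least abundant transcripts in these aggregates. In the KO Mcl1 stayed highest at 63.2 FPKM and Bcl2l1 came second at 35.5. Bid at 27.1 and Bad at 23.1 came next, ahead of Bak1 at 12.4, Bcl2l11 at 8.80 and Bmf at 8.73. In the T48h rescue Bmf, at 37.0 FPKM, was second only to Mcl1 at 65.4, and Bid had dropped to 4.21.

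**Figure D1:**
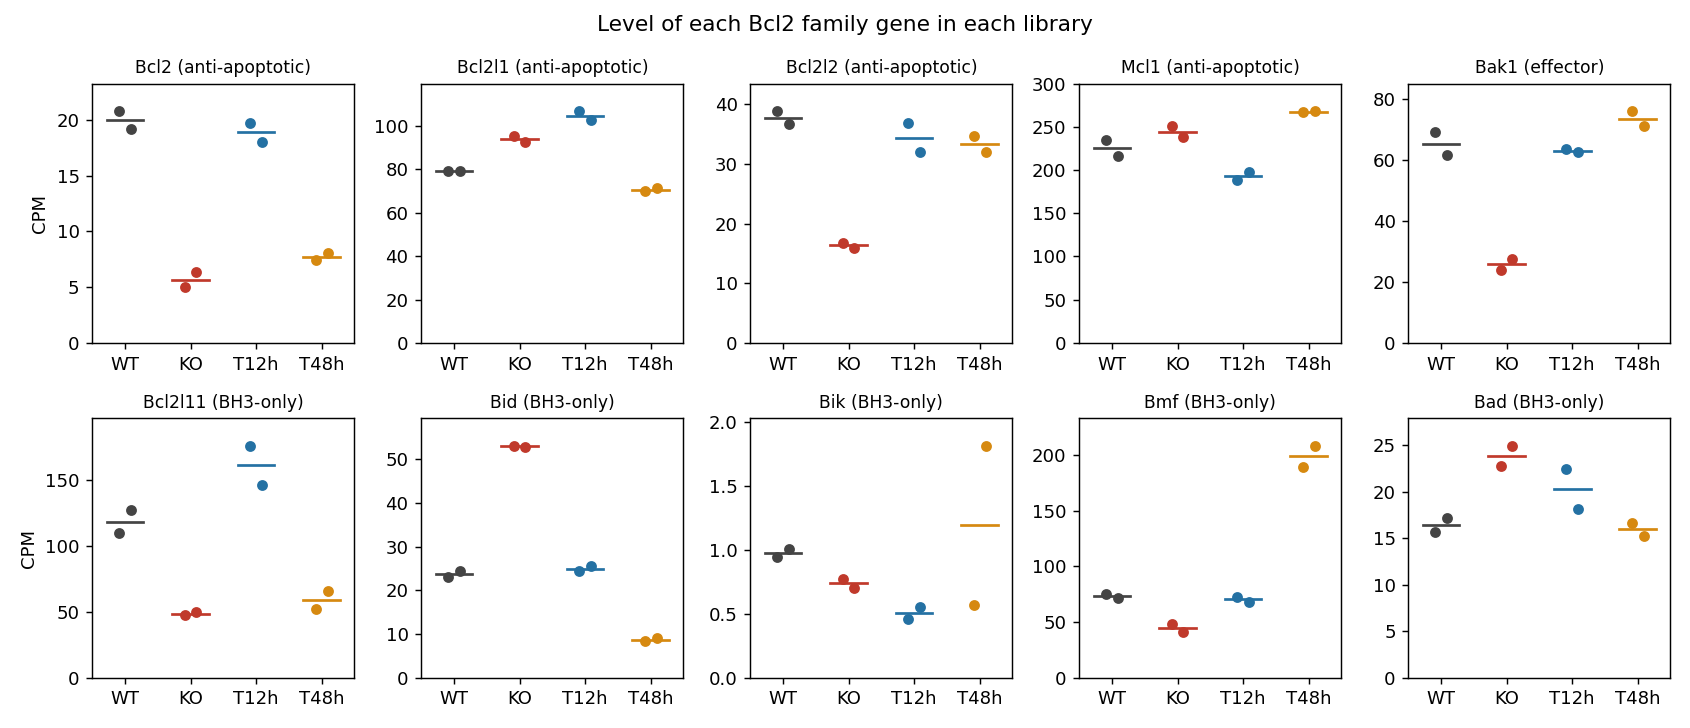
CPM of each of the 10 members in the 8 libraries, in 1 panel per gene with its own axis from 0. Points are libraries (2 per group) and lines are group means: Bcl2, Bcl2l2, Bak1 and Bcl2l11 are low in the KO, Bid is highest there, and Bmf is highest in the T48h rescue with 190 and 208 CPM.

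Among the protective members, Bcl2 and Bcl2l2 fell in the KO, whereas Bcl2l1 rose slightly and Mcl1 did not pass the test. Bcl2 (chromosome 1, 106538179 to 106714290 on mm10), which blocks apoptosis at the mitochondria and the endoplasmic reticulum, had 20.8 and 19.2 CPM in WT, 5.04 and 6.31 in the KO, 19.7 and 18.0 after T12h rescue, then 7.41 and 8.01 after T48h rescue. WT and T12h libraries were high, KO and T48h libraries were low, and the high and low libraries did not overlap. The KO was 3.54-fold lower than WT, a log2 fold change of -1.82 ± 0.17 (SE; edgeR adjusted p = 9.39e-07). The early rescue, T12h, stood 3.34-fold above the KO (edgeR adjusted p = 1.36e-06) and differed from WT by -0.08 ± 0.17 (edgeR adjusted p = 0.809, 95% interval -0.44 to 0.28). The late rescue, T48h, left Bcl2 2.59-fold below WT, at -1.37 ± 0.17 (edgeR adjusted p = 2.12e-05), and below the T12h rescue by -1.29 ± 0.17 (edgeR adjusted p = 3.40e-05). Against the KO the T48h rescue was higher by 0.45 ± 0.17 (edgeR adjusted p = 0.0359), a call that 15 of 18 alternative settings did not keep, with adjusted p up to 0.970. The FPKM of the 2 KO libraries were 0.6546 and 1.253, further apart than their CPM. An antisense gene model, D630008O14Rik, overlaps Bcl2 exons in GENCODE M21. Strandedness was not given, so it is not known whether its fragments were counted with those of Bcl2.

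Bcl2l2 (Bcl-w; chromosome 14, 54883425 to 54888234) is a protective member known for its part in sperm formation and neurons. It had 38.8 and 36.6 CPM in WT, 16.8 and 15.9 in the KO, 36.8 and 31.9 after T12h rescue, then 34.7 and 32.0 after T48h rescue. The KO libraries alone were low, and those of the T12h rescue overlapped with both WT and the T48h rescue. Bcl2l2 was 2.31-fold lower in the KO than in WT, at -1.21 ± 0.12 (edgeR adjusted p = 1.73e-06). It rose again by 1.07 ± 0.12 in the T12h rescue (edgeR adjusted p = 4.93e-06) and by 1.03 ± 0.12 in the T48h rescue (edgeR adjusted p = 6.88e-06). Neither rescue passed the test against WT, with 95% intervals of -0.39 to 0.13 and -0.44 to 0.08. In GENCODE M21 a readthrough gene model, Gm20521, shares exon bases with Bcl2l2, and its fragments could not be separated.

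Bcl2l1 (Bcl-x; chromosome 2, 152780668 to 152831682) encodes the protective protein Bcl-xL, required in blood and neuronal precursors. Its values were 79.3 and 79.2 CPM in WT, 95.5 and 92.6 in the KO, 106.7 and 102.6 after T12h rescue, then 69.9 and 71.5 after T48h rescue. The 4 groups did not overlap, in the order T12h rescue, KO, WT, T48h rescue, but the steps were small. The KO stood above WT by 0.25 ± 0.07 (edgeR adjusted p = 0.0104), a call lost without WT replicate a (adjusted p = 0.0843), WT replicate b (adjusted p = 0.0914) or KO replicate a (adjusted p = 0.0883). The T12h rescue was 1.32-fold above WT, at 0.40 ± 0.07 (edgeR adjusted p = 0.00275), and did not pass against the KO (0.15 ± 0.07, edgeR adjusted p = 0.0809). The T48h rescue was below the KO by -0.41 ± 0.07 (edgeR adjusted p = 2.75e-04) and 1.48-fold below the T12h rescue (edgeR adjusted p = 2.99e-05). It did not pass against WT (-0.16 ± 0.07, edgeR adjusted p = 0.0877), although it did with upper-quartile scaling (-0.29, edgeR adjusted p = 0.00563).

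Mcl1 (chromosome 3, 95658721 to 95663261) encodes a short-lived protective protein that early embryos cannot do without. It had 235 and 217 CPM in WT, 251 and 238 in the KO, 188 and 198 after T12h rescue, then 267 and 268 after T48h rescue. The T12h libraries were lowest and the T48h libraries highest, while WT came close to the KO. Between the rescues Mcl1 was 1.39-fold higher at T48h, by 0.47 ± 0.07 (edgeR adjusted p = 9.50e-05), and the T12h rescue was lower than the KO by -0.34 ± 0.07 (edgeR adjusted p = 8.47e-04). KO against WT did not pass (0.11 ± 0.07, edgeR adjusted p = 0.172), although it did in 4 of 18 alternative settings (DESeq2 adjusted p = 0.0323 and limma adjusted p = 0.0340 among them), nor did the T48h rescue against the KO (0.13 ± 0.07, edgeR adjusted p = 0.118). Against WT the T12h rescue was lower by -0.23 ± 0.07 (edgeR adjusted p = 0.0490) and the T48h rescue higher by 0.24 ± 0.07 (edgeR adjusted p = 0.0117), calls that 12 and 8 of 18 alternative settings did not keep.

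Bak1, the effector of the set, fell in the KO while the other main effector, Bax, rose. Bak1 (Bak; chromosome 17, minus strand, 27019810 to 27029009 in GENCODE M21) had 69.1 and 61.5 CPM in WT, 24.0 and 27.6 in the KO, 63.5 and 62.5 after T12h rescue, then 75.9 and 71.2 after T48h rescue. Only the KO libraries were low, and every other library held at least 61.5 CPM. The KO was 2.54-fold below WT, at -1.34 ± 0.10 (edgeR adjusted p = 8.66e-08). Both rescues raised Bak1 against the KO, the T12h rescue by 1.29 ± 0.10 (edgeR adjusted p = 1.17e-07) and the T48h rescue by 1.51 ± 0.10 (edgeR adjusted p = 2.25e-08). Neither passed against WT, with 95% intervals of -0.26 to 0.16 and -0.04 to 0.38. The table puts Bak1 in 1 interval with Ggnbp1, a gene on the other strand that shares exon bases with it, and Ggnbp1 stood at 0.683 to 2.58 CPM.

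**Figure D2:**
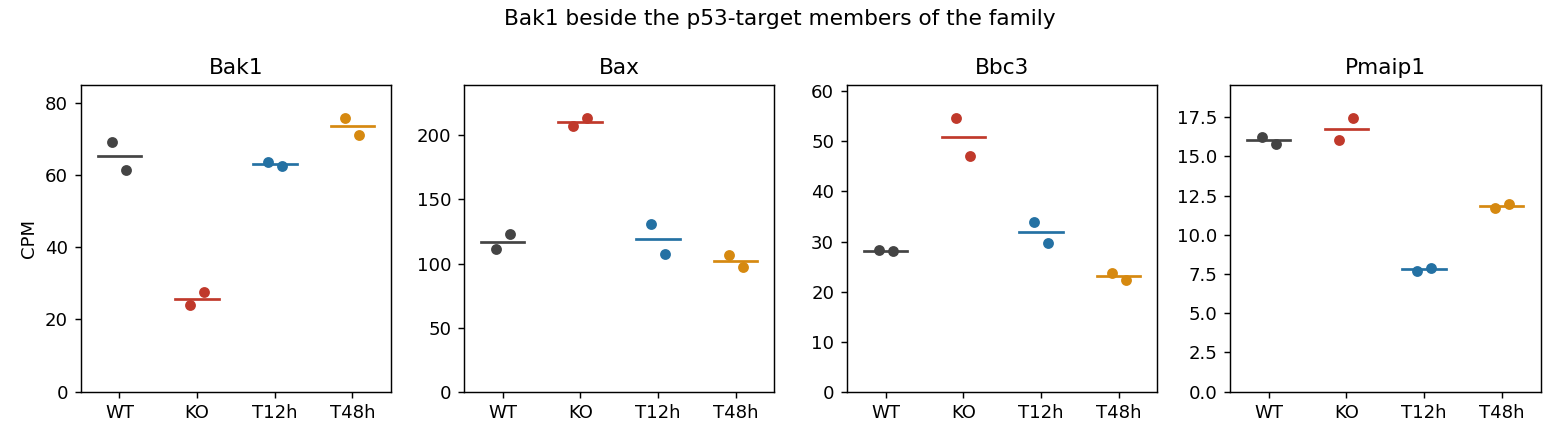
CPM of Bak1 and of the p53-target family members Bax, Bbc3 and Pmaip1 in the 8 libraries, each axis from 0, points for libraries and lines for group means. Bak1 is lowest in the KO (24.0 and 27.6 CPM) where Bax is highest (207 and 214 CPM).

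Bax, a p53 target with the same pore-forming function, went from 111 and 123 CPM in WT to 207 and 214 in the KO. It then stood at 131 and 108 CPM after T12h rescue and at 106 and 96.9 after T48h rescue. It was 1.80-fold higher in the KO than in WT, by 0.85 ± 0.10 (edgeR adjusted p = 4.94e-06). Within each library the Bak1 to Bax ratio of FPKM was 0.253 and 0.205 in WT, 0.0476 and 0.0529 in the KO, 0.199 and 0.238 after T12h rescue, then 0.280 and 0.300 after T48h rescue. Relative to Bax, Bak1 was thus at its lowest in the KO, and the T48h libraries were above all others. Bbc3 (Puma), a p53-induced BH3-only gene, rose in the KO by 0.86 ± 0.12 (edgeR adjusted p = 3.67e-05). Pmaip1 (Noxa), another, had 16.3 and 15.8 CPM in WT and 16.1 and 17.5 in the KO (edgeR adjusted p = 0.734). In KO against WT 2 of these 3 were higher and 0 lower, beside 31.7% and 32.4% of all genes tested. All 3 were lower in each rescue than in the KO, beside 32.1% of all genes lower at T12h and 33.2% at T48h.

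The BH3-only genes Bcl2l11 and Bmf, both on chromosome 2, fell in the KO and rose in the T12h rescue, then parted in the T48h rescue. Their promoters, the 250 bases before the RefSeq start (GRCm38.p6) nearest to the gene's 5′ end in GENCODE M21, are shown because this pair moved alike in the KO and the early rescue and in opposite directions between the rescues. Capitals mark matches on either strand to the GC box (GGGCGG), the CCAAT box (CCAAT), the FOXO core (GTAAACA) and the CRE half-site (TGACG). Bcl2l11 is chr2:128125788-128126037 on the plus strand and Bmf chr2:118549687-118549936 on the minus strand.
Bcl2l11: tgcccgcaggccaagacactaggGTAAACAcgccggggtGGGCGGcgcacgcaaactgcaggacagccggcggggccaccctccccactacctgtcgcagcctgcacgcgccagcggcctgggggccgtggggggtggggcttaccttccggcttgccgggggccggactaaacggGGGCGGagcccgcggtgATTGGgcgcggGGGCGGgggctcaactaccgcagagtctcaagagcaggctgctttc
Bmf: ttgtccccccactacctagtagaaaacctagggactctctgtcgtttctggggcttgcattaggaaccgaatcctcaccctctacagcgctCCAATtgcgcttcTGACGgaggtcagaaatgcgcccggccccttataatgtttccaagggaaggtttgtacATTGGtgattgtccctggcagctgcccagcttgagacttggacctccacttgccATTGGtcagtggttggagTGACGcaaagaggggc
The Bcl2l11 window is GC-rich (72.0% G and C, with 24 CG dinucleotides) and holds 3 GC boxes, 1 CCAAT box and 1 FOXO core, which starts 227 bases before the start site. Bmf's window has 54.0% G and C and 8 CG dinucleotides, and holds 3 CCAAT boxes and 2 CRE half-sites but no GC box. Among 32851 RefSeq mouse promoter windows of this length, a GC box was found in 32.7%, a CCAAT box in 33.8%, a CRE half-site in 17.8% and a FOXO core in 3.17%. Neither window matched the E-box (CACGTG), the E2F motif (TTTNNCGC), the TATA box (TATAAA) or a p53 half-site, which 6.02%, 4.28%, 12.4% and 7.13% of windows held. Such matches describe letters only.

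Bcl2l11 (Bim; 128126038 to 128162547) encodes a potent activator of apoptosis that acts in lymphocytes and upon growth factor withdrawal. The libraries held 109.7 and 127 CPM in WT, 47.2 and 49.9 in the KO, 176 and 147 after T12h rescue, then 52.1 and 65.5 after T48h rescue. T12h libraries were highest, WT came next, and the KO and T48h libraries were low, with no overlap between these levels. The KO was 2.44-fold below WT, at -1.29 ± 0.12 (edgeR adjusted p = 7.75e-07). Early rescue brought it up by 1.73 ± 0.12 from the KO (edgeR adjusted p = 4.38e-08) and to 0.45 ± 0.12 above WT (edgeR adjusted p = 0.0230). Leaving out WT replicate a ended the latter call (adjusted p = 0.237), as did leaving out T12h replicate a (adjusted p = 0.263) or fitting FPKM by either limma model (adjusted p = 0.0953 and 0.101). Late rescue left Bcl2l11 2.01-fold below WT (-1.01 ± 0.12, edgeR adjusted p = 1.31e-05) and did not pass against the KO (0.28 ± 0.12, edgeR adjusted p = 0.0571). Between the rescues it was 2.74-fold lower at T48h, by -1.45 ± 0.12 (edgeR adjusted p = 3.57e-07).

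Bmf (118528757 to 118549678) encodes a BH3-only protein known for responding to loss of cell attachment. Its levels were 75.1 and 71.5 CPM in WT, 47.95 and 41.36 in the KO, 72.6 and 68.0 after T12h rescue, then 190 and 208 after T48h rescue. WT and T12h libraries overlapped, the KO libraries lay below them and the T48h libraries far above. Bmf was 1.64-fold lower in the KO than in WT (-0.71 ± 0.09, edgeR adjusted p = 1.49e-05). It rose by 0.65 ± 0.09 in the T12h rescue over the KO (edgeR adjusted p = 3.10e-05) and differed from WT there by -0.06 ± 0.09 (edgeR adjusted p = 0.730, 95% interval -0.25 to 0.13). In the T48h rescue it was 4.45-fold above the KO (2.15 ± 0.09, edgeR adjusted p = 3.64e-10) and 2.71-fold above WT (1.44 ± 0.09, edgeR adjusted p = 2.30e-08). Over the 18 alternative settings the difference between T48h rescue and WT lay between 1.32 and 1.47 on the log2 scale.

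Bid (chromosome 6, 120893119 to 120916820) links death receptors to mitochondria, since its protein is cut by caspase-8 and then moves to the outer membrane. It went the other way, with 23.1 and 24.4 CPM in WT, 53.01 and 52.93 in the KO, 24.4 and 25.6 after T12h rescue, then 8.443 and 8.995 after T48h rescue. The KO was highest, WT and the T12h rescue lay close together in the middle, and the T48h rescue was lowest. The KO was 2.23-fold above WT, by 1.16 ± 0.12 (edgeR adjusted p = 1.54e-06). The T12h rescue was 2.12-fold below the KO (edgeR adjusted p = 2.60e-06) and within 0.07 ± 0.12 of WT (edgeR adjusted p = 0.748, 95% interval -0.18 to 0.33). The T48h rescue was 6.07-fold below the KO, at -2.60 ± 0.12 (edgeR adjusted p = 9.90e-10), and 2.72-fold below WT (edgeR adjusted p = 5.03e-07). GENCODE M21 lists exon bases shared with Bcl2l13 on the other strand, although the intervals of both genes in the deposited table do not overlap. Bcl2l13 fell by 0.95 ± 0.07 in the KO (edgeR adjusted p = 5.96e-08).

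Bad (chromosome 19, 6941861 to 6951899 in GENCODE M21) encodes a BH3-only protein kept inactive by growth factor signalling. It stood at 15.7 and 17.2 CPM in WT, 22.7 and 24.9 in the KO, 22.4 and 18.1 after T12h rescue, then 16.6 and 15.3 after T48h rescue. The KO libraries were highest, although T12h replicate a, at 22.4 CPM, came close to KO replicate a, at 22.7. The KO exceeded WT by 0.53 ± 0.15 (edgeR adjusted p = 0.00772), a call that ended when WT replicate a was left out (adjusted p = 0.0818). The T48h rescue was lower than the KO by -0.58 ± 0.15 (edgeR adjusted p = 0.00433), and the T12h rescue did not pass against the KO (-0.23 ± 0.15, edgeR adjusted p = 0.192). The table puts Bad in 1 interval with Gpr137, which lies on the other strand and shares exon bases with it. Gpr137 had 17.8 and 18.6 CPM in WT, 10.7 and 7.66 in the KO, 21.9 and 18.0 after T12h rescue, then 9.53 and 9.34 after T48h rescue. Strandedness was not given, so it is not known whether shared fragments of this pair were assigned by strand. Their part in the Bad values was not tested.

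Bik (chromosome 15, 83526862 to 83544635), a BH3-only gene whose protein sits at the endoplasmic reticulum, was near the limit of measurement. It had 34 and 34 fragments in WT, 53 and 26 in the KO, 25 and 25 after T12h rescue, then 21 and 74 after T48h rescue, or 0.463 to 1.81 CPM. The 2 T48h libraries, at 0.572 and 1.81 CPM, enclosed every other library but those of the T12h rescue. Bik passed no comparison, with an SE of 0.66 to 0.68 on the log2 scale, and its difference between KO and WT had a 95% interval of -1.84 to 1.05. Counts were low and the T48h libraries lay far apart, and which of the 2 set these wide intervals was not tested.

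**Figure D3:**
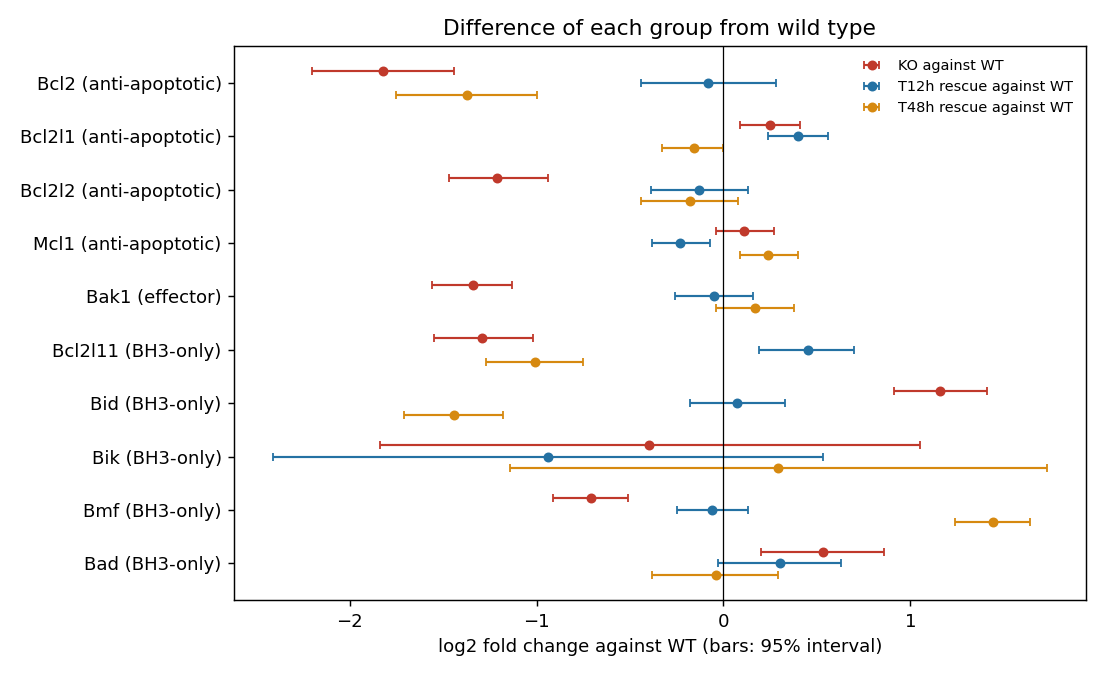
Log2 fold change of each member in the KO, the T12h rescue and the T48h rescue against WT, with 95% intervals from the edgeR fit and a line at 0. The T12h points of 7 members did not pass the test, whereas Bcl2 and Bcl2l11 stay low (-1.37 and -1.01) and Bmf is high (1.44) in the T48h rescue.

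Counted over the set, 8 of 10 members differed between KO and WT, 3 higher (Bad, Bcl2l1 and Bid) and 5 lower (Bcl2, Bcl2l2, Bak1, Bcl2l11 and Bmf). Of all 16130 genes tested 64.1% were called in that comparison (31.7% higher and 32.4% lower), so most genes were called and the count of members is read against that share. The median log2 fold change of the members was -0.55, beside 0.00 for all genes. Between the T12h rescue and the KO 7 of 10 differed, beside 64.8% of all genes (32.8% higher and 32.1% lower): the 5 that had fallen rose, and Bid and Mcl1 fell, with a median of 0.40 beside -0.01. Between the T48h rescue and the KO 7 of 10 differed, beside 67.3% of all genes (34.2% higher and 33.2% lower), 4 higher (Bcl2, Bcl2l2, Bak1 and Bmf) and 3 lower (Bad, Bcl2l1 and Bid), with a median of 0.36. These 3 comparisons share the KO libraries, so opposite signs in KO against WT and in rescue against KO are not independent.

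Against WT, the early rescue left 3 of 10 members different, beside 14.0% of all genes (7.90% higher and 6.11% lower): Bcl2l11 and Bcl2l1 were higher and Mcl1 was lower. That count was 1 without WT replicate a, without T12h replicate a and in both limma fits of FPKM, and Bcl2l1 kept its call in all 18 alternatives. The late rescue differed from WT in 5 of 10, beside 47.3% of all genes (23.9% higher and 23.4% lower), with Bmf and Mcl1 higher and Bcl2, Bcl2l11 and Bid lower. With upper-quartile scaling the calls of that comparison over all genes were 3053 higher and 4791 lower, against 3858 and 3769 with TMM. The direct test between the rescues called 6 of 10 members, beside 50.2% of all genes (24.9% higher and 25.3% lower): Bmf and Mcl1 were higher at T48h, and Bcl2, Bcl2l11, Bcl2l1 and Bid were lower. Bak1 and Bcl2l2 did not pass between the rescues, with 95% intervals of 0.01 to 0.43 and -0.30 to 0.21 for T48h against T12h (edgeR adjusted p = 0.0740 and 0.782).

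**Figure D4:**
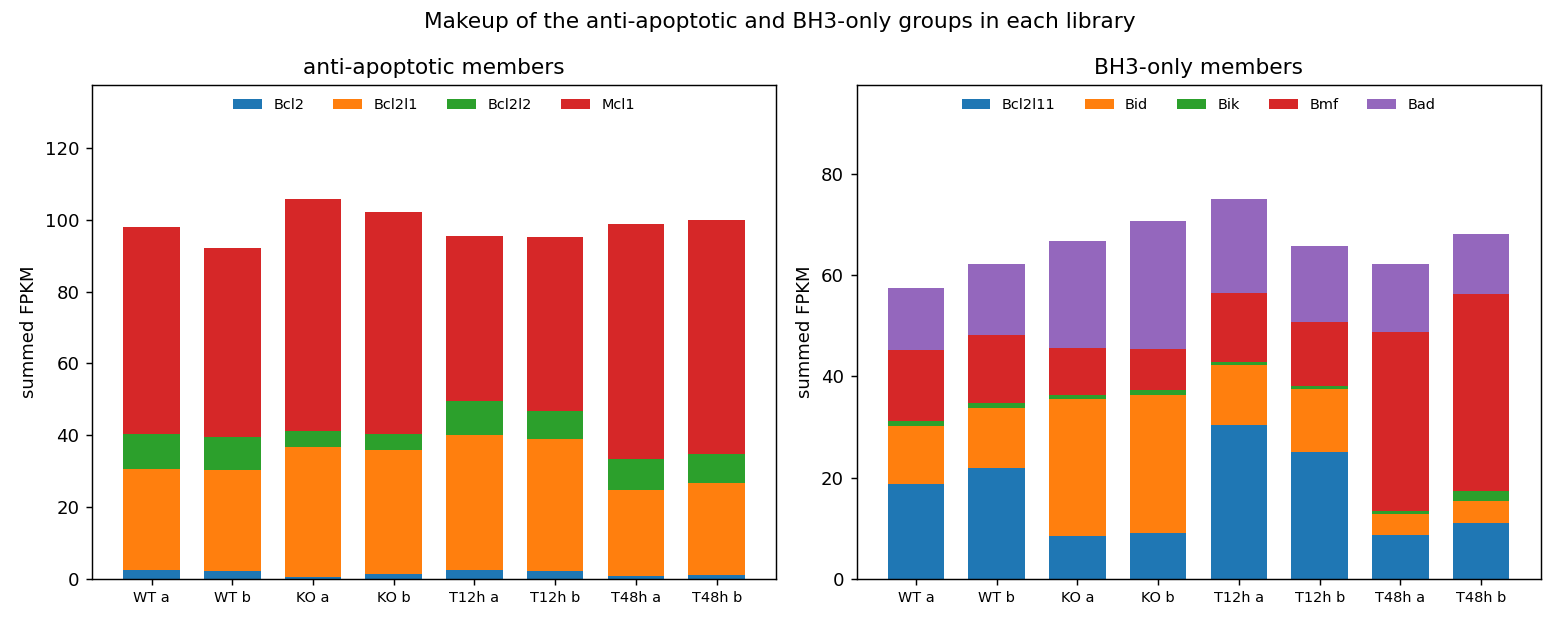
Summed FPKM of the 4 anti-apoptotic members (left) and the 5 BH3-only members (right) in each of the 8 libraries, as stacked bars from 0 with 1 colour per gene. Anti-apoptotic sums lie between 92.2 and 105.8 FPKM, while the makeup of the BH3-only bars shifts from Bcl2l11 in the T12h rescue to Bid and Bad in the KO and Bmf in the T48h rescue.

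Although single members moved several-fold, the anti-apoptotic and BH3-only sums of this set stayed within a narrow range, unlike the effector Bak1 on its own. The set leaves out the p53-target members, so these sums do not give the balance of the whole family. Mean Bbc3, a BH3-only gene left out, was 13.8 FPKM in WT, 24.8 in the KO, 15.75 after T12h and 11.5 after T48h rescue. In the same order Pmaip1 had 5.37, 5.91, 2.61 and 3.94 FPKM, and the effector Bax 131, 246, 133 and 115. The 4 anti-apoptotic members summed to 98.1 and 92.2 FPKM in WT, 105.8 and 102.1 in the KO, 95.6 and 95.3 after T12h rescue, then 98.9 and 99.9 after T48h rescue. The 5 BH3-only members summed to 57.5 and 62.2 FPKM in WT, 66.7 and 70.6 in the KO, 75.0 and 65.7 after T12h rescue, then 62.1 and 68.1 after T48h rescue. Within a library the anti-apoptotic sum was 1.27 to 1.71 times the BH3-only sum, and every group overlapped with at least 1 other in that ratio. The makeup, by contrast, was different in the KO and in the T48h rescue. Bcl2l11 made up 32.7% and 35.1% of the BH3-only sum in WT and 40.5% and 38.2% in the T12h rescue, but 12.7% and 12.9% in the KO and 14.1% and 16.2% in the T48h rescue. Bid gave 40.5% and 38.6% of it in the KO and 6.56% and 6.39% in the T48h rescue, where Bmf gave 56.8% and 57.0%. Bad, whose fragments overlap with Gpr137, gave 31.5% and 35.8% in the KO and 17.5% to 24.8% in the other groups. Mcl1 supplied 48.3% to 66.2% of the anti-apoptotic sum in every library. These sums describe RNA per transcript length and were not tested.

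The other genes of the pathway were counted from lists, with "higher" and "lower" at the same threshold. Of 12 further family and BH3-containing genes 8 were tested, and Bcl2a1a, Bcl2a1b, Bcl2a1d and Bcl2l10 were too low. In the KO against WT 1 was higher and 5 were lower, beside 31.7% and 32.4% of all genes. Bnip3, a mitophagy receptor, fell by 3.03 ± 0.12 (edgeR adjusted p = 1.52e-10), and Bok, an effector-like member, by -1.33 ± 0.18 (edgeR adjusted p = 2.77e-05). Bok had 18.3 and 19.9 CPM in WT, 7.85 and 7.34 in the KO, 24.5 and 17.5 after T12h rescue, then 8.80 and 8.85 after T48h rescue, low in the same groups as Bcl2 and Bcl2l11. In the rescues against the KO this list had 5 higher and 2 lower at T12h, beside 32.8% and 32.1% of all genes, and 4 higher and 3 lower at T48h, beside 34.2% and 33.2%.

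Downstream of the mitochondria, 6 of 15 apoptosome, caspase and inhibitor genes were higher and 4 lower in the KO, beside 31.7% and 32.4% of all genes, so that the share called was near the 64.1% of all genes. Apaf1, the scaffold of the apoptosome and a p53 target, had 96.0 and 107 CPM in WT and 338 and 338 in the KO, a rise of 1.73 ± 0.10 (edgeR adjusted p = 5.27e-09). The initiator caspase that it activates, Casp9, fell by 0.89 ± 0.12 (edgeR adjusted p = 2.22e-05). Against the KO, 6 were higher and 4 lower with early rescue, where 64.8% of all genes were called, and 6 and 2 with late rescue, where 67.3% were. Of the death receptor genes 4 of 7 tested were higher and 2 lower in the KO, beside the same shares of all genes. Tnfrsf10b, a receptor for the ligand TRAIL, rose by 1.54 ± 0.09 (edgeR adjusted p = 1.03e-08), and Cflar, an inhibitor of caspase-8, fell by 1.37 ± 0.15 (edgeR adjusted p = 2.95e-06). In the rescues against the KO that list had 3 higher and 4 lower at T12h and 3 and 3 at T48h, again beside 64.8% and 67.3% of all genes called. Cflar stood at 25.2 and 25.7 CPM in WT, 10.97 and 8.525 in the KO, 24.9 and 26.9 after T12h rescue, then 41.6 and 48.3 after T48h rescue.

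At the outer membrane 4 of 6 partner genes were higher and 1 lower in the KO than in WT, beside 31.7% and 32.4% of all genes. Against the KO the counts were 2 and 3 with early rescue, and 2 and 2 with late rescue. In these comparisons 32.8% of all genes were higher and 32.1% lower with early rescue, and 34.2% and 33.2% with late rescue, which also holds for the lists that follow. Vdac2, a channel that binds Bak, rose in the KO by 0.61 ± 0.07 (edgeR adjusted p = 9.33e-06), while Bak1 fell. Among regulators known to act on family members, 9 of 13 tested were higher and 2 lower in the KO, and 31.7% and 32.4% of all genes were. The count was 1 higher and 9 lower in the T12h rescue against the KO, and 3 and 10 in the T48h rescue. Stat3 rose in the KO by 1.87 ± 0.10 (edgeR adjusted p = 2.79e-09) and Jun by 1.18 ± 0.09 (edgeR adjusted p = 1.20e-07). E2f1 differed by -0.92 ± 0.12 (edgeR adjusted p = 1.47e-05) and Atf4 by -0.44 ± 0.10 (edgeR adjusted p = 0.00133). Foxo3, which encodes a transcription factor known to activate Bcl2l11, rose in the KO by 0.86 ± 0.08 (edgeR adjusted p = 4.64e-07), where Bcl2l11 was low. The part of these regulators in the Bcl2l11 levels was not tested. Foxo1, a relative of Foxo3, had 66.7 and 71.9 CPM in WT, 71.3 and 83.8 in the KO, 77.4 and 83.5 after T12h rescue, then 21.5 and 18.5 after T48h rescue. Foxo1 was thus low only in the T48h libraries, by -1.79 ± 0.11 against WT (edgeR adjusted p = 1.88e-08). Of 19 p53 targets outside the family 16 were higher and 1 lower in the KO than in WT, beside the 31.7% and 32.4% of all genes. Against the KO they were 1 and 16 with early rescue, and 1 and 17 with late rescue. Trp53 itself rose in the KO by 0.77 ± 0.08 (edgeR adjusted p = 2.51e-06).

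Members were last set against tested genes of at least 5 CPM in their highest group. The other members, gene models without a proper name, microRNAs, small nucleolar RNAs and loci with joined symbols were left out of this search. The measure was the Pearson correlation of log2(CPM + 0.5) over the 8 libraries, which fall into 4 groups and are described without a test. Only the 6 members whose group means spanned at least 1 on the log2 scale were searched. Closest to Bcl2 were Shank2, Sfmbt1 and Nsg1 (r = 0.999, 0.999 and 0.997), and to Bcl2l11 Tecpr1, Akap13 and Nr2f6 (r = 0.995, 0.994 and 0.994). For Bcl2l2 they were Asrgl1, Pank4 and Zkscan4 (r = 0.997, 0.995 and 0.994), and for Bak1 Kif2c, Dhdh and Ncapd2 (r = 0.997, 0.997 and 0.996). Bid was closest to Mob3b, Ctgf and Map3k9 (r = 0.999, 0.998 and 0.997), and Bmf to Sept10, Mpped2 and Pnrc1 (r = 0.998, 0.997 and 0.996). Within the family Bcl2 paired with Bcl2l11 (r = 0.95) and Bcl2l2 with Bak1 (r = 0.96), while Bid and Bmf ran opposite (r = -0.98).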

How the data were processed

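The submitters' processing notes name Cufflinks 2.2.1, TopHat2 2.1.1, deepTools, SAMtools 1.5 and the mm10 build. Annotation and strandedness were not given in the sources used here. Estimated counts per locus were deposited by the authors, per the file headers, and the values show 1 multiplying factor per column (0.630 to 1.29), which was divided out before technical columns were summed and rounded. The deposited FPKM are the authors' values, averaged over technical columns. The labels give 2 runs of 2 replicates per group, but the columns carry the group and a number from 1 to 4 with no run or replicate stated, so technical pairs were found by agreement of counts within a group (mean chi-square per degree of freedom 1.60 to 1.83 within pairs, 9.07 to 16.5 between). Unnamed loci (5143, with 3.16% to 6.12% of counts) and 8 loci marked as overfull were left out, and 112 companion columns (bounds, variances and status) gave no tested value.

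All 4 groups were fitted together with edgeR 4.0.16 in R 4.3.3 (quasi-likelihood F-test, TMM, filterByExpr, Benjamini-Hochberg over 16130 genes, adjusted p under 0.05, 4 residual degrees of freedom). SE is the log2 fold change divided by the square root of F. The procedure was tested on simulated data. Alternatives used DESeq2 1.42.0 and limma 3.58.1 on log2(FPKM + 1) and log2(FPKM + 0.1), which understates changes of low genes. Named genes were all members, Wdr5, up to 4 genes per list and comparison by smallest adjusted p, and the 3 genes closest in pattern to each member whose group means spanned at least 1 (log2). Genes overlapping a member were named after their values were seen. Members and lists were chosen with earlier results of these data known.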

Additional observations from a re-analysis of the deposited data

Results flagged for a closer look

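For 2 members the 2 rescues moved in opposite directions from the KO and the direct test between them passed. Against the KO Bcl2l1 was at 0.15 with T12h and -0.41 with T48h rescue (log2), a difference of -0.57 ± 0.07 for T48h against T12h (edgeR adjusted p = 2.99e-05). Mcl1 was at -0.34 and 0.13, a difference of 0.47 ± 0.07 (edgeR adjusted p = 9.50e-05). In neither gene did both of the single steps from the KO pass the test: Bcl2l1 did not at T12h, and Mcl1 did not at T48h, where upper-quartile scaling turned its sign (-0.01).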

How the results depend on the processing

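Over 18 alternative settings, 1013 of 1080 recomputed log2 fold changes of members kept their direction and side of the threshold, 43 lost a call, 16 gained one and 8 turned sign, and 42 of the 60 results changed under none of them. The sign turned for Mcl1 between T48h rescue and KO with upper-quartile scaling (-0.01), and for Bak1 between T12h rescue and WT without WT replicate a (0.03). It also turned for Bad between T48h rescue and WT with the first technical column alone (0.04) and without T48h replicate b (0.00), and for Bcl2l2 between the rescues without T12h replicate a (0.01) or T48h replicate b (0.00). Without T48h replicate b Bik stood at -0.37 against the KO and -0.78 against WT. Over single left-out replicates, Bik ranged up to 1.26 against the KO and 0.86 against WT, Bak1 down to -0.14, Bad down to -0.16 and Bcl2l2 down to -0.19. None of the sign-turned values passed the test, and the cause was not tested.

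The count of members called between T12h rescue and WT was 1 in both limma fits of FPKM and 1 to 3 when each replicate was left out, and that of all genes went from 2261 to between 1068 and 2570, the lowest without WT replicate a. With the first technical column alone the summed anti-apoptotic FPKM was 95.9 for T12h and 101.2 for T48h rescue. Upper-quartile scaling moved the median log2 fold change of all genes to -0.147 (T48h rescue against KO), -0.163 (against WT) and -0.115 (against T12h). Its calls over all genes were 4719 higher and 6141 lower for T48h rescue against KO (5509 and 5353 with TMM). They were 3439 and 4746 for T48h against T12h rescue (4014 and 4086 with TMM). For T12h rescue they were 1047 and 1195 against WT (1275 and 986 with TMM) and 4882 and 5501 against KO (5284 and 5175). KO against WT had 5241 and 5114 (5117 and 5220 with TMM). The larger side turned in every comparison but T48h against T12h rescue, including T48h rescue against WT given above. DESeq2, run without the filter on low counts and so over other genes, gave medians of 0.152 (KO against WT), -0.174 and -0.183 (T12h and T48h rescue against KO). In the same order edgeR without that filter gave 0.093, -0.110 and -0.181. Leaving out a replicate leaves 1 library in that group, which is assumed to vary like the others. Columns are numbered within each group, but nothing ties a number to a culture or day. Deviations of libraries at the same position correlated at -0.04 to 0.04 over genes, so the numbers were not taken to pair libraries. A fit with a replicate block by column order, chosen after seeing the data, called 8, 7, 7, 2, 5 and 6 members in the 6 comparisons in the order of the report; Mcl1 between T12h rescue and WT was the member that lost its call (-0.23, edgeR adjusted p = 0.0697). Bik had the widest intervals of the members.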
